A study of Mus musculus with 6 samples.

Results

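The 3 mouse genes of the transforming growth factor beta (TGF-beta) ligands and 7 genes of TGF-beta response and mesenchymal transition were followed between young and aged tail epidermis. The genes were Tgfb1, Tgfb2, Tgfb3, Tgfbi, Fn1, Vim, Zeb1, Zeb2, Snai2 and Twist2. They were found on the array through the RefSeq accession of each probe, and all 10 had a probe, with 12 of the 55681 non-control probes between them. Of 21368 genes with a named probe 14135 were tested, and 7 of the 10 were among them. Zeb1, Zeb2 and Twist2 were not, because no probe of theirs was well above background on any array.

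Epidermis was separated from tail skin with EDTA in wild-type C57BL/6 mice, and the amplified cDNA of each sample was hybridised to a 1-colour Agilent array of its own. The young group held 3 samples taken at 8 weeks of age. The aged group held 3 samples, replicate 1 taken at 22 months and the other two at 25 months. Treatment and sex are not among the labels, which also do not say whether each sample was a separate animal, so p-values measure only how far these samples spread, and that spread may be technical. All values are log2 of the processed signal minus the 75th percentile of the same array, called the scaled signal here. A value of 0 is the 75th percentile itself, and values of different genes are not compared because probes differ in brightness.

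Before scaling, the 75th percentile lay between 230.2 and 300.3 units, and between 50.02% and 54.38% of probes were well above background. The Y-linked transcripts Ddx3y, Eif2s3y and Kdm5d were well above background on young replicate 1 and aged replicate 1 and on no other array, while Y-linked Uty was so also on young replicate 3, and Xist on all arrays but aged replicate 1. All 12 keratinocyte marker genes were well above background on all 6 arrays, with the basal keratin gene Krt5 at 8.99 to 9.05 in young and 9.07 to 9.24 in aged epidermis. All arrays lay on 1 slide and were read in 1 scan, but young replicates 1 and 2 lay in the first row of the slide and the other 4 arrays in the second. In tissue of mixed cell types, fewer cells of a type and less RNA per cell cannot be told apart.

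TGF-beta ligands are secreted in a latent form, held in the matrix by latent TGF-beta binding proteins and released by integrins and proteases. The active ligand joins a pair of receptor kinases, which phosphorylate SMAD2 and SMAD3, and these enter the nucleus with SMAD4. In keratinocytes the pathway is known for halting division, and in the hair follicle TGF-beta signals take part in the growth cycle. Epithelial to mesenchymal transition is the loss of E-cadherin junctions and the gain of vimentin and fibronectin, driven by DNA-binding repressors of the SNAI, ZEB and TWIST families. Some of these genes are also part of the normal programme of other skin cells, such as vimentin in Langerhans cells, melanocytes and fibroblasts.

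Promoter sequence was read for 6 of the 10 genes, as 9 windows of 250 bases directly before a transcript start. Those of 4 genes are shown because they cover the response gene whose groups separated (Tgfbi), both ligand genes with a window (Tgfb1 and Tgfb2) and a transition factor that was not detected (Twist2). Sequences are from RefSeq on GRCm38.p6, written 5′ to 3′ on the strand of the gene. Capitals mark CAGAC, the short SMAD element, or GTCTG, the same letters on the other strand.
Tgfbi (chr13:56609336-56609585, plus strand): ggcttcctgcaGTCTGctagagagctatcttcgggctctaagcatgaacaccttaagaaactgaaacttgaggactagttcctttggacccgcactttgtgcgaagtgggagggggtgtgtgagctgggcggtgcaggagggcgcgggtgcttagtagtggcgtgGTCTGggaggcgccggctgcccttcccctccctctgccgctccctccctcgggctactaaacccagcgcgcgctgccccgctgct
Tgfb1 (chr7:25686752-25687001, plus strand): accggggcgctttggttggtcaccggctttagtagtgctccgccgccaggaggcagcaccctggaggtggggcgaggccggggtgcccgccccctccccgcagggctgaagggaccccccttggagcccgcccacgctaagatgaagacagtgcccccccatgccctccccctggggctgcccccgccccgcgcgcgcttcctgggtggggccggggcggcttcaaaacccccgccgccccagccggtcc
Tgfb2 (chr1:186705990-186706239, minus strand): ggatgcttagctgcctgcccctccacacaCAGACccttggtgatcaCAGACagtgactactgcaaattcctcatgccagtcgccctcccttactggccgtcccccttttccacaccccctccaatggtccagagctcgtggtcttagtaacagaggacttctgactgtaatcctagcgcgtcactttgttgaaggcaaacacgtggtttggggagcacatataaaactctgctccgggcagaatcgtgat
Twist2 (chr1:91801211-91801460, plus strand): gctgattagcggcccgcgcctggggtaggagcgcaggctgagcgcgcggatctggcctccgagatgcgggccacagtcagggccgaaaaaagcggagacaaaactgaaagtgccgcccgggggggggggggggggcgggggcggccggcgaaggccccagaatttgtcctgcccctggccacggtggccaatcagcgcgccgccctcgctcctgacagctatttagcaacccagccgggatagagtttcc
The element occurred at 2 places in the Tgfbi window and at 2 in the Tgfb2 window, and at 0 in the windows of Tgfb1, Vim, Zeb2 and Twist2. Among the 32807 windows given by RefSeq, it was held at least once by 42.2%. The letters CAGGTG on either strand, a core site of SNAI and ZEB factors, occurred in 0 of the 9 windows and in 17.2% of all windows, and neither motif contains the other. The share of G and C was 75.2% for Tgfb1 and 68.8% for Twist2, with 21 and 23 CpG dinucleotides, against medians of 52.4% and 6 over all windows. A match describes letters only and was not tied to binding in these samples.

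None of the 7 tested genes differed between aged and young epidermis past the threshold of 0.05 (limma with Benjamini-Hochberg adjustment over 25066 features, adjusted p between 0.111 and 0.968). Over all tested genes 0.0778% were past it, 0.0424% as higher and 0.0354% as lower in aged epidermis. At an unadjusted p under 0.05 there were 2 of the 7, Tgfbi and Fn1, beside 17.7% of all genes. In the same 2 genes the groups were without overlap, or 28.6% of the 7, beside 27.0% of all genes, so this share lies near the background. Tgfbi was the 1 higher gene, where 11.4% of all genes had an unadjusted p under 0.05 and 19.5% had no overlap in that direction, and Fn1 the 1 lower gene, where these shares were 6.30% and 7.48%. The difference was above 0 for 3 of the 7, beside 63.6% of all genes, and below 0 for 4, and the median difference over all tested genes was 0.0929 on the log2 scale. All 7 were well above background on all 6 arrays.

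**Figure D1:**
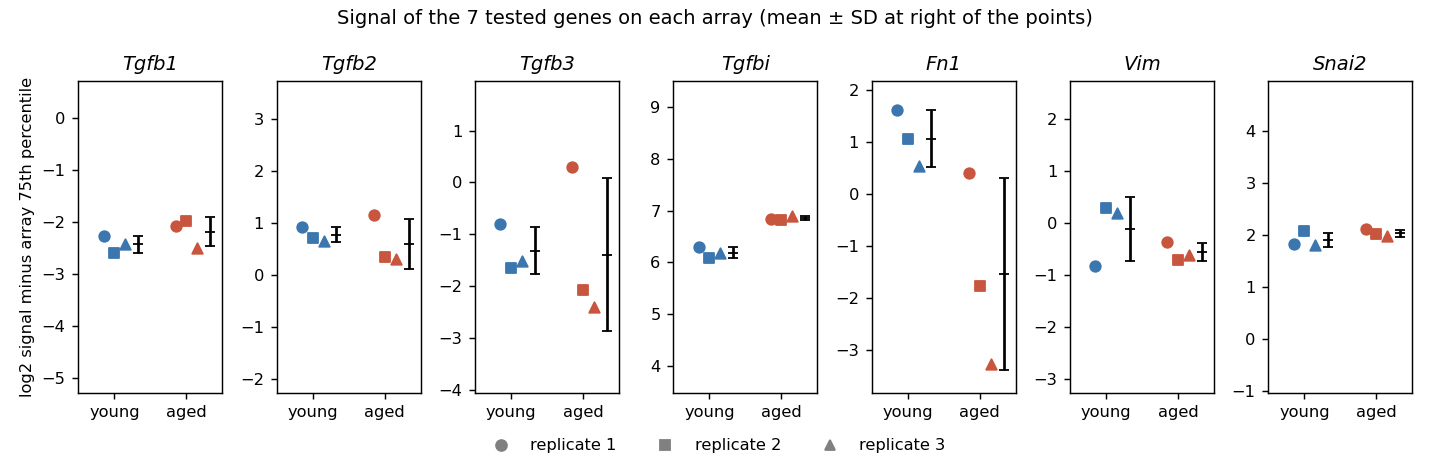
Scaled signal (log2 signal minus the 75th percentile of the array) of the 7 tested genes on each array, young in blue and aged in red, with the marker shape giving the replicate number and the bar the mean ± SD of 3 arrays. Each panel spans the same number of log2 units around its own centre. Tgfbi is tight in both groups and higher in the aged one, while Fn1 and Tgfb3 spread widely among the aged arrays.

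Tgfb1 encodes the ligand made most widely in the body. Its scaled signal was -2.27, -2.60 and -2.43 on young replicates 1, 2 and 3 and -2.08, -1.98 and -2.50 on aged replicates 1, 2 and 3. Aged replicates 1 and 2 lay above every young array and aged replicate 3 among them. The difference, aged minus young, was 0.25 ± 0.18 log2 units (± SE, 3 arrays a group, limma adjusted p = 0.487), with a 95% interval of -0.19 to 0.68. The Tgfb1 probe was printed 10 times on each array, and the array value is the mean of these spots, which had an SD of 0.108 to 0.181 within an array. Between arrays the SD was 0.17 in young and 0.28 in aged epidermis. Leaving out 1 array gave differences from 0.14 (without aged replicate 2) to 0.40 (without aged replicate 3).

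Tgfb2 encodes a ligand that in mouse follicles is known as a signal from the dermal papilla to stem cells. Its brighter probe read 0.93, 0.71 and 0.66 on the young arrays and 1.16, 0.33 and 0.30 on the aged arrays. Aged replicate 1 was above all young arrays, and aged replicates 2 and 3 were below all of them. The difference was -0.17 ± 0.25 (limma adjusted p = 0.753, 95% interval -0.79 to 0.45). A second probe of the same transcript read -0.78, -0.82 and -0.81 in young and -0.64, -1.23 and -1.30 in aged epidermis. It placed the aged arrays on the same sides of the young ones, with a difference of -0.25 ± 0.20 when all probes were fitted singly (adjusted p = 0.522). Without aged replicate 1 the difference of the brighter probe was -0.45 (adjusted p = 0.139), and without aged replicate 3 it was -0.02.

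Tgfb3 encodes the ligand known from palate fusion and wound repair. Its scaled signal was -0.79, -1.64 and -1.51 on the young arrays and 0.30, -2.06 and -2.40 on the aged arrays. The highest and the 2 lowest of the 6 values were all aged, and the aged SD of 1.47 stood against 0.45 in young epidermis. The 10 spots of this probe had an SD of 0.0609 to 0.134 within an array, so the distance between aged replicate 1 and the other aged arrays was many times the spread of the spots. The difference of -0.07 ± 0.72 (limma adjusted p = 0.968) has a 95% interval of -1.83 to 1.68, which allows a change of more than 1 log2 unit either way. Its sign depended on the arrays used: it was -0.92 without aged replicate 1, 0.19 without young replicate 1, 0.27 without aged replicate 2 and 0.43 without aged replicate 3. It was also above 0 with scaling to the median, normexp background correction, and in the fit blocked on slide row.

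For Tgfb2, Tgfb3 and Fn1, replicate 1 was the highest array of its group in young as in aged epidermis. This held for 3 of the 7 tested genes and for 22.2% of all tested genes, and it was noticed after the values were seen. Ddx3y, Eif2s3y and Kdm5d were detected in these samples, and the aged one is also the sample of 22 months. With replicate 1 of both groups left out, which leaves 2 arrays per group, Tgfb3 differed by -0.66 ± 0.17 (limma adjusted p = 0.123) and Tgfb2 by -0.37 ± 0.12 (adjusted p = 0.162). Neither passed, while 1.52% of all genes did in that fit. Dcn, the gene of decorin, a small proteoglycan that binds TGF-beta, also had its highest aged value on replicate 1, with 4.34 against 1.92 and 1.19, and its highest young value of 2.84 on replicate 1 against 1.95 and 2.02. It was chosen after its values were seen.

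Tgfbi encodes a secreted matrix protein that binds integrins and was named for its induction by TGF-beta. Its scaled signal was 6.31, 6.09 and 6.18 on the young arrays and 6.84, 6.81 and 6.89 on the aged arrays. All aged values lay above all young values, and both groups were tight, with SDs of 0.11 and 0.04. The difference was 0.66 ± 0.11, or 1.58-fold (limma adjusted p = 0.111, 95% interval 0.39 to 0.93), and it did not pass. By unadjusted p (0.000927) it was number 119 of 14135 genes. The 95% interval is that of a single gene and is not adjusted for the number of genes. Leaving out 1 array gave differences from 0.61 to 0.72. Without aged replicate 1 the adjusted p was 0.0483, in a fit in which 5.72% of all genes passed, and without replicate 1 of both groups it was 0.0749. Blocking on slide row, which rests on 1 young array, the difference was 0.67 ± 0.18 (adjusted p = 0.629).

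**Figure D2:**
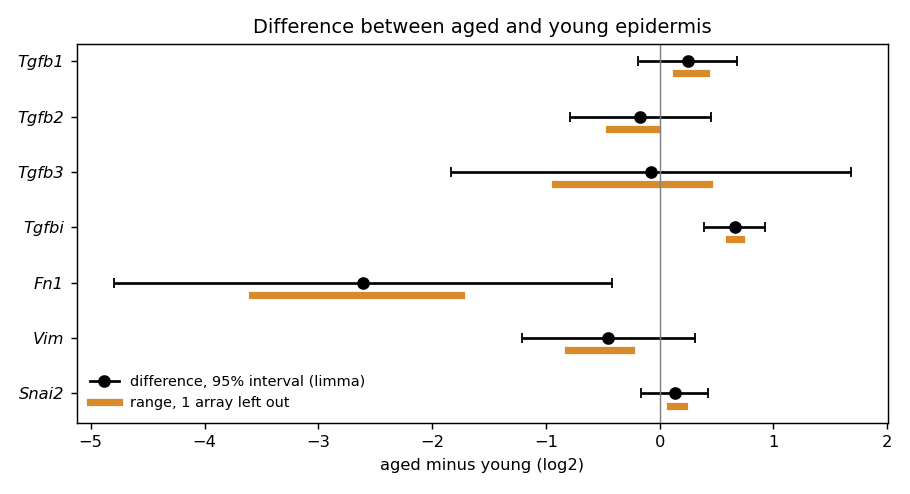
Difference between aged and young epidermis on the log2 scale for the 7 tested genes, with the 95% interval from limma (black, 3 arrays per group) and the range of the difference when each array in turn was left out (orange). The intervals of Tgfbi, 0.39 to 0.93, and of Fn1, -4.80 to -0.42, lie to one side of 0 before any adjustment for the number of genes.

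Fn1 encodes fibronectin, a matrix glycoprotein bound by integrins and a classical product of mesenchymal cells. Its scaled signal was 1.62, 1.05 and 0.54 on the young arrays and 0.41, -1.77 and -3.26 on the aged arrays. Every aged value was below every young one, but aged replicate 1 lay only just below young replicate 3, and the aged SD was 1.85 against 0.54 in young epidermis. The difference was -2.61 ± 0.90, or 6.10-fold lower (limma adjusted p = 0.225, 95% interval -4.80 to -0.42). It did not pass with all 6 arrays, and leaving out 1 array moved it from -3.59 (without aged replicate 1, adjusted p = 0.0227) to -1.75 (without aged replicate 3). In the fit without aged replicate 1, 5.72% of all genes passed. The Fn1 difference was also refitted in other ways. Without replicate 1 of both groups it was -3.31 ± 0.55 (adjusted p = 0.0740). Blocking on slide row, it was -2.08 ± 1.36 (adjusted p = 0.701), and with normexp -1.80 (adjusted p = 0.151).

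Marker genes of hair followed the order of Fn1 over the aged arrays, and those of pigment cells were low on aged replicates 2 and 3. All 21 tested genes of hair shaft and inner root sheath were lower in aged epidermis, with 0 past the threshold and 16 at an unadjusted p under 0.05. On this list the aged arrays deviated from the young mean by a median of -0.71, -3.08 and -5.87 for replicates 1, 2 and 3. That is the aged order of Fn1, and also of the melanocyte, follicle stem cell, mural and other mesenchymal lists. The lists of TGF-beta latency and activation, other transition factors and T cells had it too, with smaller aged deviations, from -0.195 to 0.164. The order is thus not particular to hair. The remaining lists, among them the Langerhans, fibroblast, endothelial and keratinocyte lists, had other orders. Young replicates 1, 2 and 3 deviated by 0.25, -0.41 and 0.14 on the hair list, which is not the young order of Fn1. Its summed signal, in multiples of the 75th percentile, was 1950 to 3060 in young and 206 to 1680 in aged epidermis. Examples were Padi3, a protein deiminase gene of hair (-4.06 ± 1.26, limma adjusted p = 0.205), the inner root sheath keratin Krt72 (-2.90 ± 0.68) and the keratin-associated gene Krtap8-1 (-1.42 ± 0.35). All 11 tested melanocyte genes were also lower, with 0 past the threshold and 5 at an unadjusted p under 0.05. Their median deviations were -0.11, -1.76 and -1.79 for aged replicates 1, 2 and 3, the first of them within the young range of -0.19 to 0.22, with a summed signal of 16.9 to 22.2 in young and 6.48 to 15.6 in aged epidermis. Mitf, whose product directs the melanocyte lineage, showed a difference of -1.06 ± 0.17 (adjusted p = 0.107), Tyrp1 one of -1.59 ± 0.56 and Kit, detected on 2 of 3 aged arrays, one of -2.10 ± 0.70, which was -0.84 with normexp. The part of these cells in the Fn1 value was not tested.

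The fibroblast list gave a mixed reading beside Fn1. Of its 15 genes 8 were tested, with 3 differences above and 5 below 0, and Pdgfra, Pdgfrb, Lum, Dpt and Fbn1, among them defining markers, were not well above background on any array. The median difference was -1.52, and at an unadjusted p under 0.05 there were 5 lower and 1 higher. Col1a1 and Col3a1, which encode chains of collagens I and III, fell past the threshold. Col1a1 differed by -2.95 ± 0.18 (limma adjusted p = 0.0283) with detection on 2 of 3 aged arrays. Col3a1 was detected on 0 of 3 aged arrays and entered the test only through its 3 young arrays. Its difference was -2.41 ± 0.22 with the undetected aged signals taken as read (limma adjusted p = 0.0467). With no detection filter the adjusted p was 0.116. A bound of 5.14-fold lower was also taken, without a p-value. For each aged array it uses the higher of the lowest detected signal and the Col3a1 signal itself. Normexp background correction gave -1.16 for Col1a1 (adjusted p = 0.0533) and -0.55 for Col3a1 (adjusted p = 0.103), so both calls and the size of the bound depend on how background is treated. Col1a2 differed by -2.08 ± 0.35 (adjusted p = 0.111). Dpp4 differed by -0.97 (limma adjusted p = 0.168), without overlap. Col6a3, detected on 0 of 3 aged arrays, differed by -2.29 (adjusted p = 0.202), also without overlap. Like Col3a1, it entered the test only through its 3 young arrays, and both are among the 5 lower genes. In the other direction Thy1, a surface antigen gene of fibroblasts and T cells, differed by 1.60 (adjusted p = 0.192), without overlap, and Dcn and Col6a1 by 0.21 and 0.07. Dpp4, Col6a3, Thy1, Dcn and Col6a1 were named after their values were seen. The call of Col1a1 and Col3a1 was lost with the replicate number as a block, with adjusted p of 0.153 for each, and without any single array other than aged replicate 1. The summed signal of the list was 9.58 to 13.6 in young and 10.4 to 25.8 in aged epidermis, while aged replicates 1, 2 and 3 had median deviations of -0.92, -1.63 and -1.18. The sum is weighted to the brightest genes. It includes Dcn, highest on aged replicate 1, and Thy1, also a T cell gene, so it is no measure of fibroblasts alone. The part of fibroblasts in the Fn1 value was not tested.

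**Figure D3:**
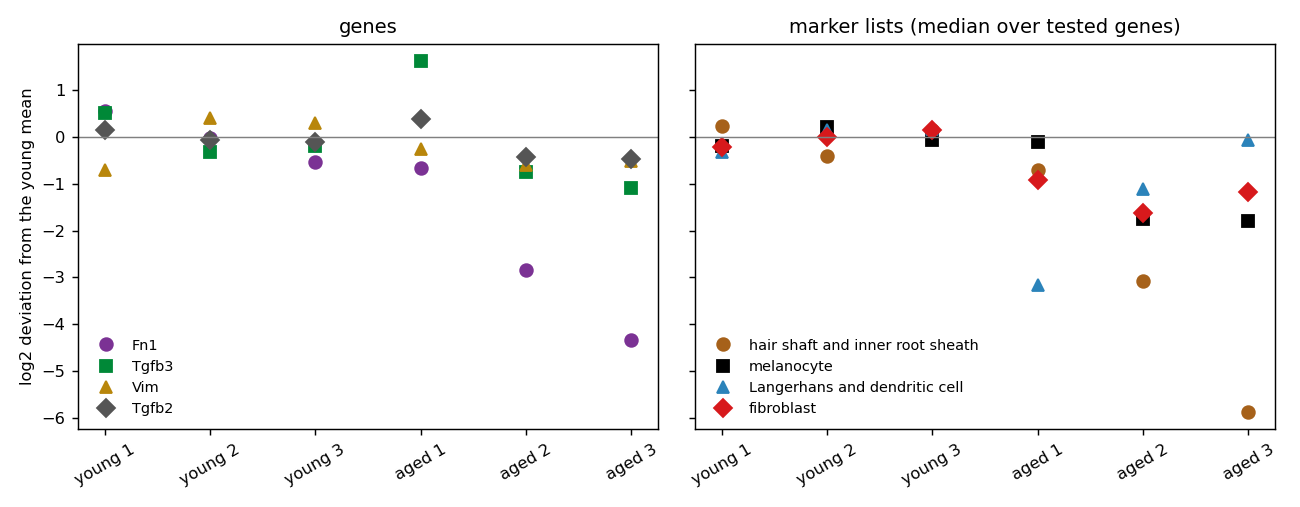
Left, deviation of Fn1, Tgfb3, Vim and Tgfb2 from the mean of the young arrays (log2), by array. Right, the same for 4 marker lists, as the median over the tested genes of each list. Fn1 and the hair list are lowest on aged replicate 3, and aged replicate 1 is high for Tgfb3 and lowest for the Langerhans and dendritic cell list, at -3.17.

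Vim encodes vimentin, the intermediate filament of mesenchymal and many immune cells. Its scaled signal was -0.82, 0.29 and 0.20 on the young arrays and -0.37, -0.70 and -0.61 on the aged arrays. Young replicate 1 was the lowest of all arrays, and the other young arrays lay above every aged one. The difference was -0.45 ± 0.31 (limma adjusted p = 0.469, 95% interval -1.21 to 0.31). It moved to -0.81 without young replicate 1 and to -0.25 without young replicate 2. Without replicate 1 of both groups it was -0.90 ± 0.12 (adjusted p = 0.0617), which did not pass.

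Langerhans and dendritic cells, which make vimentin, were lower by their markers on aged replicates 1 and 2, while aged replicate 3 lay within the young range. Of 12 tested marker genes 11 were lower, 0 passed the threshold and 3 had an unadjusted p under 0.05. Aged replicates 1, 2 and 3 had median deviations of -3.17, -1.10 and -0.05, against -0.32 to 0.17 on the young arrays. The summed signal of the list was 30.6 to 44.1 in young and 12.6 to 31.5 in aged epidermis. Cd207, which encodes langerin and defines Langerhans cells, was detected on 3 young and 2 aged arrays, with -6.96, -3.90 and -1.83 on aged replicates 1, 2 and 3. The Vim value on aged replicate 1, where Cd207 was lowest, was the highest of the aged group. Mfge8 differed by -0.98 ± 0.23, Fcer1g, an Fc receptor chain gene, by -0.73 ± 0.18 and Cd83, detected on 1 of 3 aged arrays, by -2.36 ± 0.82, which was -0.77 with normexp. Their limma adjusted p ran from 0.151 to 0.227. The part of these cells in the Vim value was not tested.

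Snai2 was the 1 transition factor of the 4 that the arrays detected. It encodes SLUG, a zinc finger repressor of E-cadherin that mouse keratinocytes are known to make during wound healing. Its scaled signal was 1.83, 2.07 and 1.82 on the young arrays and 2.12, 2.03 and 1.98 on the aged arrays. The groups overlapped, since young replicate 2 lay among the aged values, and the difference was 0.13 ± 0.12 (limma adjusted p = 0.587). The 95% interval was -0.16 to 0.43, and leaving out 1 array gave 0.09 to 0.21.

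Zeb1 and Zeb2 encode zinc finger and homeodomain repressors of E-cadherin, and Twist2 encodes a basic helix-loop-helix factor first described in dermis. The Zeb1 probe read -7.09, -6.06 and -6.38 on the young arrays and -6.99, -6.61 and -6.50 on the aged arrays. The Twist2 probe read -7.28, -6.00 and -6.98 in young and -7.21, -6.97 and -6.70 in aged epidermis. Zeb2 had 2 probes, with values from -7.24 to -6.78 in young and from -7.18 to -6.50 in aged epidermis. The lowest signal of any probe well above background was -4.97, -4.78 and -4.68 on the young arrays and -5.43, -4.78 and -4.45 on the aged arrays, above all 4 probes on every array. The raw processed signal of the 4 probes was 1.81 to 4.07 units, against a lowest detected signal of 6.98 to 10.6 units. These probes therefore gave no detectable signal at this sensitivity, and no fold or test is given. Whether the probes can detect their transcripts was not tested. Zeb2 is known from melanocytes and dendritic cells, whose markers Mitf and Cd207 were both detected on the young arrays.

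**Figure D4:**
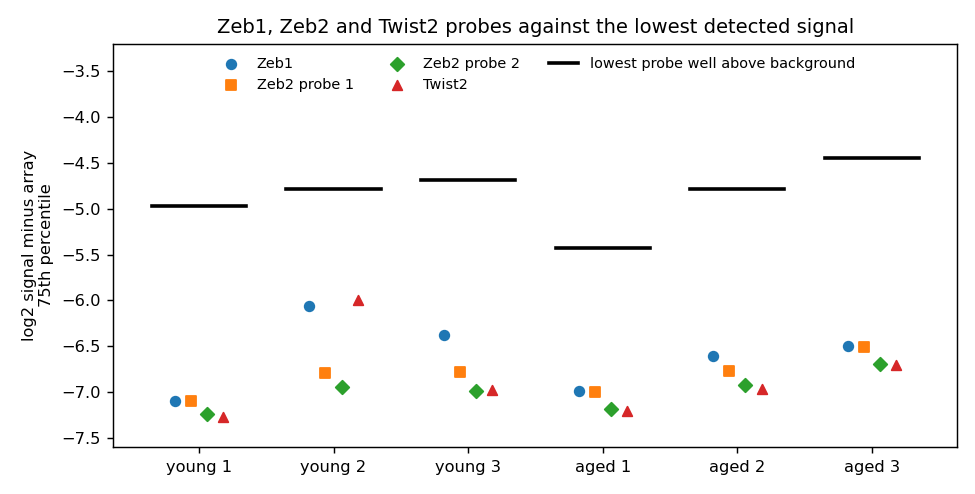
Scaled signal of the probes of Zeb1, Zeb2 and Twist2 on each array (points) and the lowest scaled signal among all probes well above background on that array (black bars). All points lie below the bar of their array.

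Of 10 other transition factors, Snai1, Snai3, Twist1, Prrx1 and Gsc were detected on no array. Of the 5 tested 0 passed, with 1 at an unadjusted p under 0.05 and a median difference of -0.03. That gene was Foxc2, a forkhead factor of mesenchyme and lymphatic vessels, at -1.83 ± 0.49 (limma adjusted p = 0.175) with detection on 3 young and 2 aged arrays. With normexp the Foxc2 difference was -0.60, so its size depends on how background is treated. Ets1 differed by 0.23 ± 0.16, Klf8 by 0.32 ± 0.27 and Tcf4 by -0.14 ± 0.20.

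The receptors and SMADs were present and did not pass. All but Bambi of the 15 listed genes were well above background on all 6 arrays, and of the 14 tested 0 passed, with 3 at an unadjusted p under 0.05, 1 higher and 2 lower, and a median difference of 0.10. Over all tested genes 17.7% had an unadjusted p under 0.05, and the median difference was 0.0929. The same background stands beside the lists that follow. In the core of the pathway Tgfbr1 differed by 0.06 ± 0.12, Tgfbr2 by 0.30 ± 0.22 and Smad3 by 0.24 ± 0.14. Leaving out 1 array moved Tgfbr2 between 0.17 and 0.52 and Smad3 between 0.13 and 0.34. The 3 genes with the smallest p were Acvrl1, Eng and Smad6. Acvrl1, which encodes the receptor kinase ALK1, read -2.15, -2.32 and -2.03 on the young arrays and -0.41, -0.62 and -1.38 on the aged arrays, without overlap and higher by 1.36 ± 0.26 (limma adjusted p = 0.120). Eng, the gene of the co-receptor endoglin, was lower by the reading of every aged array, with a difference of -0.96 ± 0.20 (adjusted p = 0.127). Smad6, an inhibitory SMAD, differed by -1.17 ± 0.30 (adjusted p = 0.167), and the co-receptor gene Tgfbr3 by 0.50 ± 0.24. Endothelial markers did not pass beside them: Pecam1 differed by -0.36 ± 0.16 (adjusted p = 0.291), and Cdh5, Tek, Tie1 and Esam were not well above background on any array.

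Genes that hold the ligands latent or release them also did not pass, with 0 of 15 tested past the threshold, 3 higher and 1 lower at an unadjusted p under 0.05 and a median difference of 0.03. Nrros, which tethers latent TGF-beta on myeloid cells, differed by 0.84 ± 0.20 (limma adjusted p = 0.15). Mmp2, a gelatinase gene, differed by 0.81 ± 0.21 (adjusted p = 0.167), with aged values of 2.79, 2.12 and 2.11 all above young values of 1.57, 1.46 and 1.58. Furin, the protease gene for processing of the precursor, differed by 0.33 ± 0.12 and Ltbp2 by -1.13 ± 0.31.

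TGF-beta response genes beside Tgfbi showed no common direction. Of 19 tested 0 passed, 9 were above and 10 below 0, the median difference was -0.03, and 4 had an unadjusted p under 0.05, 1 higher and 3 lower. Pmepa1, a feedback inhibitor of SMAD signalling, differed by -0.49 ± 0.16 (limma adjusted p = 0.212), Id2 by -0.52 ± 0.15, and Tgif1, a SMAD corepressor gene, by 0.39 ± 0.13. Ltbp2 is also in this list.

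**Figure D5:**
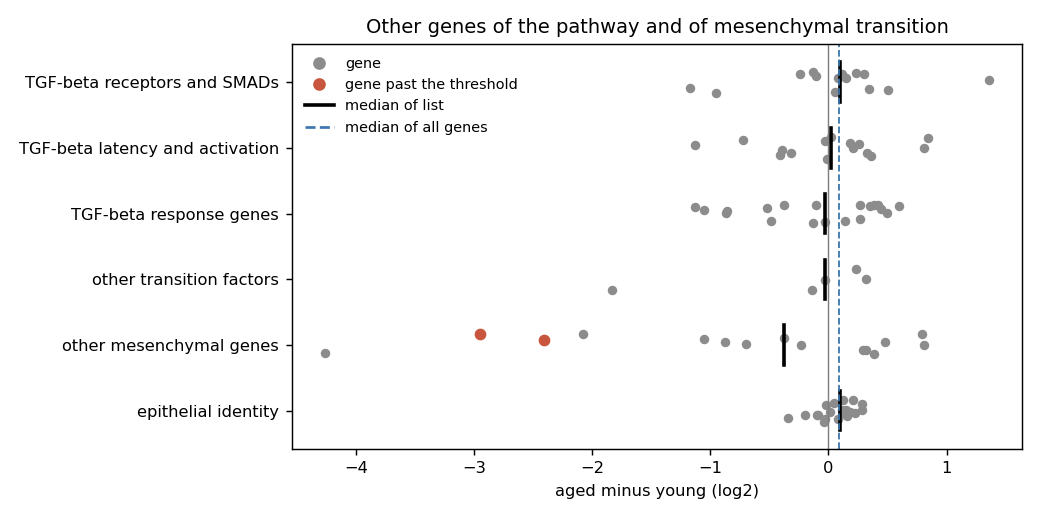
Difference between aged and young epidermis (log2) for each tested gene of 6 lists, with the median of each list as a black bar and the median of all tested genes, 0.0929, as a dashed line. The 2 genes past the threshold, Col1a1 and Col3a1, are in red and belong to the list of other mesenchymal genes, while the epithelial list lies close to 0.

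Of 15 tested other mesenchymal genes Col1a1 and Col3a1 fell past the threshold, as above, none rose, and the median difference was -0.37. At an unadjusted p under 0.05 there were 6, 1 higher and 5 lower. Cdh2, the gene of N-cadherin, differed by -0.23 ± 0.69, with a sign that turned without young replicate 3 or aged replicate 3, and Acta2, the gene of smooth muscle actin, by -1.05 ± 0.56 (limma adjusted p = 0.363), moving to -1.62 without aged replicate 1 and -0.55 without aged replicate 3. Of 20 tested epithelial genes 0 passed and 1, St14, had an unadjusted p under 0.05, the differences ran from -0.34 to 0.29, and the median was 0.10, near that of all genes. Cdh1, the gene of E-cadherin and the standard target of the transition factors, read 4.26, 4.26 and 4.34 in young and 4.47, 4.38 and 4.45 in aged epidermis, without overlap and with a difference of 0.15 ± 0.10 (adjusted p = 0.468). St14, a membrane protease gene, differed by -0.34 ± 0.13, Cdh3 by 0.21 ± 0.12, the splicing factor gene Esrp1 by 0.22 ± 0.13 and the desmosome gene Dsp by 0.18 ± 0.12, with adjusted p between 0.243 and 0.456.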

How the data were processed

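Tail epidermis from 3 young and 3 aged samples was profiled on 1-colour arrays. Per the file headers, the scanner software was Feature Extraction 11.5.1.1, and the deposited processed signal is a linear intensity after background subtraction and spatial detrending, with no scaling across arrays. Medians of spots and of their local background were deposited as unprocessed intensity. The authors' table of log2 values (33870 probes) matched the scanner values, scaled to the 75th percentile and centred on each probe's median, with r of at least 0.9999 on each array. Its column medians were -0.013, -0.021 and -0.021 for young replicates 1 to 3 and -0.0087, 0.016 and 0.071 for aged replicates 1 to 3. Scanner flags marked detection, saturation (0 spots) and outlier spots (116 to 170 per array, left out).

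From these, log2 signal minus the array's 75th percentile was taken, and spots of a probe were averaged. The planned mean spot signal is not a column of the files, so normexp used medians. Probes were named by RefSeq accession with a GRCm38.p6 table (28331 of 55681); the array design is on another build, so only promoter windows carry coordinates. A probe well above background on at least 3 of 6 arrays was tested, with the brightest standing for its gene; 2 probes with no usable spot on an array were left out. The test was lmFit with eBayes (limma 3.58.1, R 4.3.3, two-sided), with Benjamini-Hochberg adjustment over 25066 features and a threshold of 0.05. The fit was tested on simulated arrays. An exact permutation test of 3 against 3 cannot go below 0.1, so none is given. Precision is limited by how many arrays there are.

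The 10 genes, 6 pathway lists and 9 marker lists were chosen with earlier results of these data known. All 10 genes are named. Of each pathway list up to 4 genes, and of the fibroblast, melanocyte, Langerhans and hair lists up to 3, are named by smallest unadjusted p, beside a panel of pathway and marker genes. 1 gene of that panel is not reported here. Titles number both groups 1 to 3. Taken as deviations from the group mean, samples of the same number had correlations of 0.414, 0.259 and 0.102 over features. Young replicate 2 correlated as well with aged replicate 3 (0.286), so these values do not settle whether the numbers pair the samples. The main fit did not pair them. The block on replicate number was an alternative.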

Additional observations from a re-analysis of the deposited data

How the results depend on the processing

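Every tested gene of the 10 other than Tgfb3 kept its direction under all 17 alternatives, and Tgfbi ranged from 0.60 to 0.74 and Fn1 from -3.59 to -1.75. Of the 7, 2 (Tgfbi and Fn1) passed with array weights, where 16.8% of all genes passed. With 1 array left out 0 to 2 passed, the same 2 without aged replicate 1, where 5.72% of all genes passed. No other alternative gave a call; with the replicate block 0 of the 7 passed (limma), and Tgfbi had an adjusted p of 0.162 and Fn1 of 0.171. Tgfb3 differed by 0.080 with normexp, 0.0033 with scaling to the median, 0.12 with the slide row block and -0.92 to 0.43 with 1 array left out. Tgfbr1 differed by -0.070 with the mean of probes, -0.0064 with the slide row block and -0.0096 to 0.13 with 1 array left out. With 1 array left out Cdh2 ranged from -0.79 to 0.39 and Tcf4 from -0.31 to 0.041.

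Over all genes 11 passed with all 6 arrays. The count was 21 with scaling to the median, 7 with quantile normalization, 3 with detection on all 6 arrays, 1 with no detection filter, 2376 with array weights, 215 without replicate 1 of both groups and 0 to 809 with 1 array left out, the highest without aged replicate 1. It was 0 with the replicate block and with the slide row block (limma), where 2710 and 858 genes had an unadjusted p under 0.05. Of the 6 pathway lists 2 genes passed. With normexp, with detection on all 6 arrays, with no filter and with either block 0 did, with quantile normalization 1, with array weights 19, without replicate 1 of both groups 4, and with 1 array left out 0 to 10. The planned normexp on mean signals was not run, since the files hold none, and the version on medians was chosen after seeing the data. Array weights were estimated from the same 6 arrays, gene by gene. The cause of these shifts was not tested. Signals near the lowest detected level, such as aged Col1a1, have uncertain folds.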

Other observations

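Other marker lists read beside the 10 genes gave no gene past the threshold. Of the 12 genes of follicle stem cells and outer root sheath 11 were lower in aged epidermis, with 2 at an unadjusted p under 0.05 and median deviations of -0.03, -0.49 and -1.39 on aged replicates 1, 2 and 3. Their summed signal, in multiples of the 75th percentile, was 201 to 223 in young and 162 to 247 in aged epidermis. Mural and muscle genes had 3 tested of 7, with 0 at an unadjusted p under 0.05, a median difference of -1.05 and median deviations of 0.09, -1.19 and -2.05 on aged replicates 1, 2 and 3.

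Of the 9 T cell genes 4 were tested, and Cd3d, Cd247, Cd2, Trat1 and Il2rb were not well above background on any array. The median difference of the 4 was 0.04, and 1, Thy1, was higher at an unadjusted p under 0.05. The other tested genes, Cd3e, Lck and Cd3g, differed by 0.07, 0.02 and -0.97, with overlap between the groups. The summed signal of the list was 2.66 to 3.89 in young and 4.23 to 10.5 in aged epidermis, without overlap. That sum includes Thy1, which differed by 1.60 and is also on the fibroblast list, so it is no measure of T cells alone. Of the 4 tested endothelial genes 1 was higher and 3 were lower, with a median difference of -0.22 and 0 at an unadjusted p under 0.05. Of the 12 keratinocyte genes 10 were higher and 2 lower, 1 of them at an unadjusted p under 0.05, with a median difference of 0.15.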
